A study of Xenopus laevis with 9 samples.

Results

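Chromatin regulators are the proteins that write, read, erase and move the marks and nucleosomes that package DNA. Their genes were picked on the array by name: each of the 104 probe sets carried 1 gene symbol which, without the .L or .S that marks the homeologous copies of Xenopus laevis, began with the name of a known chromatin family. The families were histone deacetylases and sirtuins, SWI/SNF and CHD remodellers, BAZ, ARID, bromodomain and CBX proteins, Polycomb subunits, lysine and arginine methyltransferases, demethylases, acetyltransferases and ING proteins, DNA methylation genes, HMG proteins and histone chaperones. These 104 probe sets, of 15611 on the array and 9304 with 1 symbol, stood for 77 symbols. One member, uhrf1bp1l.L, matched by name alone and is not a chromatin protein, arid3a.S encodes a DNA-binding transcription factor, and sirt3.2.L, sirt4.L and sirt5.L encode mitochondrial enzymes.

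RNA came from African clawed frog embryos at stage 26, when the head and tail bud have formed. Primary mouth tissue, anterior dorsal tissue and ventral tissue with the cement gland were dissected, and 75 to 100 embryos were pooled per sample. Each tissue had 3 samples on 1 array each, numbered 1a, 2 and 3 for primary mouth and 1, 2 and 3 for the others. The labels name no strain, treatment or clutch, so the spread behind each p-value is that of these samples and may be partly technical.

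As background, DNMT1 with its partner UHRF1 copies DNA methylation to new strands after replication, and the chaperones CAF-1 and ASF1 load histones onto those strands. Polycomb repressive complex 2, with EZH2, EED and SUZ12, methylates lysine of histone H3 and keeps developmental genes silent. The NuRD and CoREST complexes join the deacetylases HDAC1 and HDAC2 to a remodeller (CHD4) or to the demethylase KDM1A, and ISWI remodellers pair the motor SMARCA5 with BAZ proteins. Many of these proteins are abundant in dividing embryonic cells and in neural progenitors.

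Signals are on the linear scale of the array. Differences between tissues are on the log2(signal + 16) scale, each with its standard error, and come from limma with Benjamini-Hochberg adjustment over all 10011 probe sets tested, with a threshold of 0.05. A probe set was tested when its signal exceeded the array's own 40th percentile on at least 3 of 9 arrays. Of the 104 members 86 were tested, for 69 symbols. The other 18 had signals of 0.222 to 49.3, and 8 symbols had no tested probe set: cbx2.L, baz2b.S, hdac9.S, ing1.S, kdm6a.S, mbd2.S, sirt2.S and smarcc2.L. These were not compared by a test. Among them hdac9.S read 14.7, 20.4 and 25.8 for primary mouth, 4.41, 4.03 and 5.39 for anterior dorsal and 10.2, 9.98 and 9.15 for ventral tissue. These signals did not overlap between tissues, but all lay below the 40th percentiles of the arrays (30.9 to 35.8). The gene was named after its values were seen, so no tissue pattern is read from it. Median signals were 51.1 to 59.6 per array. Control probe sets for beta-actin divided the arrays into 2 sets: the ratio of 3' to 5' signal, which rises when RNA is degraded or incompletely copied, was 5.48 to 11.2 in anterior dorsal 1, primary mouth 1a and 2 and ventral 1. It was 1.46 to 2.03 in the remaining 5 arrays. The sets were not balanced over tissues, as primary mouth had more high-ratio arrays than either other tissue. Differences between the sets therefore enter the primary mouth contrasts. The labels name no batch. Marker genes were listed with earlier results of these data known, so they are no independent check of the dissection, and pitx1 was on both lists that follow. The summed signal of 7 primary mouth probe sets was 2382 to 3473 in primary mouth and 417 to 695 elsewhere. That of 6 cement gland probe sets was 2966 to 4119 in anterior dorsal tissue, 5515 to 9469.5 in primary mouth and 19202 to 25434 in ventral tissue. Cement gland transcripts were thus also measured in the primary mouth samples.

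Chromatin regulators that differed between tissues were mostly highest in anterior dorsal tissue and lowest in ventral tissue, with primary mouth between or level with 1 of them. Of 86 tested members, 27 were higher in anterior dorsal than in ventral tissue, or 31.4%, where 10.5% of all tested probe sets were, and 1 was lower, where 14.1% of all were. Among the 27 is hdac2.S, whose direction was fixed by the filter, as given below, so its call adds no support. The 10.5% was not cleared of such probe sets either. In primary mouth 7 were higher than in ventral tissue (4.42% of all tested) and 0 lower by limma (10.1% of all). At an unadjusted p under 0.05, 16 were higher and 1 lower, together 19.8% of members where 27.8% of all probe sets were. Against anterior dorsal tissue 1 was higher in primary mouth (4.68% of all) and 3 were lower (4.87% of all). At an unadjusted p under 0.05, 2 were higher and 17 lower, together 22.1% of members where 22.7% of all probe sets were. For anterior dorsal against ventral tissue the unadjusted counts were 37 higher and 2 lower, 45.3% of members where 35% of all were. The 27 higher probe sets stood for 24 symbols, and every member called in any contrast was among those 27 or was arid3a.S. In either direction 4, 7 and 28 members passed for primary mouth against anterior dorsal tissue, primary mouth against ventral tissue and anterior dorsal against ventral tissue, beside 9.56%, 14.5% and 24.7% of all probe sets. Anterior dorsal tissue was higher than both others for 3 members (3.93% of all) and lower for 1 (3.11%), and ventral tissue was lower than both for 7 (2.54%). Primary mouth was higher than both for 0 (1.16%) and lower for 0 (0.659%).

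The shift was broad and small. The median difference between anterior dorsal and ventral tissue was 0.41 over the 86 members and 0.04 over all tested probe sets, and 88.4% of members were above 0 against 54.3% of all. Between primary mouth and ventral tissue the medians were 0.24 and 0.06, and between primary mouth and anterior dorsal tissue -0.15 and -0.01. Means fell in the order anterior dorsal, primary mouth, ventral in 43 of 86 members, or 50%, and in 24.9% of all probe sets. The opposite order was found in 2 members, 2.33%, against 18.3% of all.

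**Figure D1:**
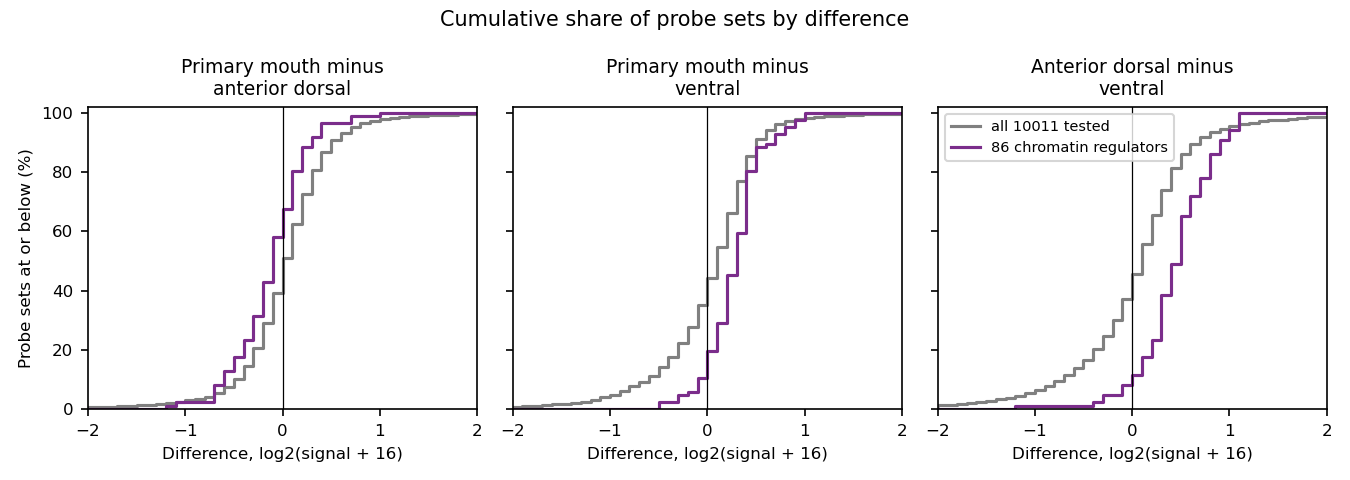
Cumulative share of probe sets (vertical axis, percent) at or below a given difference between tissues (horizontal axis, log2(signal + 16)), for the 86 tested chromatin regulators and all 10011 tested probe sets. Around the medians the curve of the chromatin regulators lies to the right of the other for both differences from ventral tissue. Its median is 0.41 for anterior dorsal and 0.24 for primary mouth. For primary mouth minus anterior dorsal the curve of the chromatin regulators lies to the left (median -0.15). Further out the curves cross, since the largest differences are those of other probe sets.

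These counts changed on leaving out single arrays, as did the shares of all probe sets called. That of 27 was 14 without anterior dorsal 2, 12 without anterior dorsal 3, 17 without ventral 1 and 14 without ventral 3, where 7.43%, 7.6%, 8.91% and 7.66% of all probe sets were called. With the array set as a term it was 44 (17.7% of all), and within the sets alone it was 4 of 86 in the 4 arrays of high actin ratio (4.46% of all) and 37 in the 5 others (13.9% of all). The difference between anterior dorsal and ventral tissue was above 0 in 72 members within the high-ratio arrays (52.9% of all probe sets). It was above 0 in 78 within the low-ratio arrays (53.6% of all). In both sets it was above 0 for 71 members, against 43.1% of all probe sets, and below 0 for 7. Members are not replicates, and the high-ratio set held 1 array of each of these tissues. A shift of 1 array can move many members together, so these counts describe the arrays and carry no test. The count of 7 members higher in primary mouth than in ventral tissue was 4 without primary mouth 1a (2.92% of all) or 2 (3.51%) and 3 without ventral 2 (2.64%) or 3 (2.37%), and 15 with the array set as a term (8.76%). The count of 3 lower in primary mouth than anterior dorsal was 0 on leaving out any of anterior dorsal 2 and 3 (3.26% of all each), primary mouth 2 (3.68%) and ventral 2 (4.14%), 5 without anterior dorsal 1 (4.91%), 6 without primary mouth 3 (5.61%) and 11 with the array set as a term (8.11%).

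**Figure D2:**
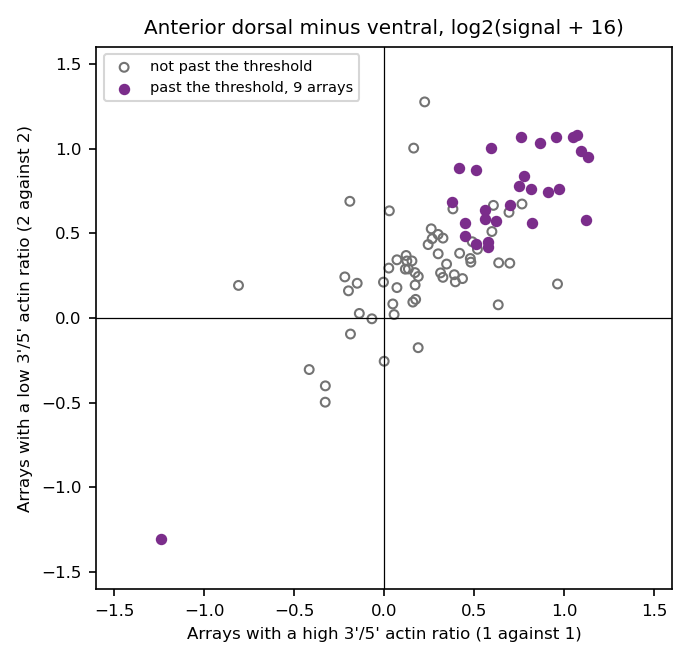
Each point is 1 of the 86 tested members. The horizontal axis gives the difference between anterior dorsal and ventral tissue in the arrays with a high 3' to 5' actin ratio (1 array per tissue), the vertical axis the same in the arrays with a low ratio (2 per tissue), both on the log2(signal + 16) scale, and filled points passed the threshold over 9 arrays. Of the 86 points 71 lie at the upper right, above 0 on both axes, and arid3a.S is the filled point at the lower left. The filled points include hdac2.S, whose direction was fixed by the filter.

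Lists of replication and neural genes moved the same way, and cement gland and heart, blood and myeloid genes the opposite way. Of 14 tested DNA replication probe sets (the mcm genes, pcna, cdc6 and others), 14 were higher in anterior dorsal than in ventral tissue, with a median difference of 1.06, and 6 were higher in primary mouth than in ventral tissue. Their summed signal over 17 probe sets was 11020.0 to 11611 in anterior dorsal, 8269 to 9599.9 in primary mouth and 5607 to 6041 in ventral tissue. Of 15 tested forebrain and neural tube probe sets 15 were higher in anterior dorsal than in ventral tissue. In primary mouth 13 of these 15 were lower than in anterior dorsal tissue and 6 higher than in ventral tissue. Summed signals of this list, over 17 probe sets tested or not, were 4306.5 to 5109 in anterior dorsal, 378 to 556 in ventral tissue and 996 to 1163 in primary mouth. Fewer cells of a type and less RNA per cell cannot be told apart in these pooled tissues. Of 7 tested heart, blood and myeloid probe sets 7 were lower in anterior dorsal than in ventral tissue (median -3.46), with summed signals over 8 probe sets of 144 to 217 in anterior dorsal, 856 to 1005 in primary mouth and 2246 to 3278 in ventral tissue. Of 6 cement gland probe sets 6 were lower. Of 3 epidermis probe sets 1 was lower (median -0.57). The lists were drawn up with earlier results of these data known, and their part in the chromatin result was not tested.

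**Figure D3:**
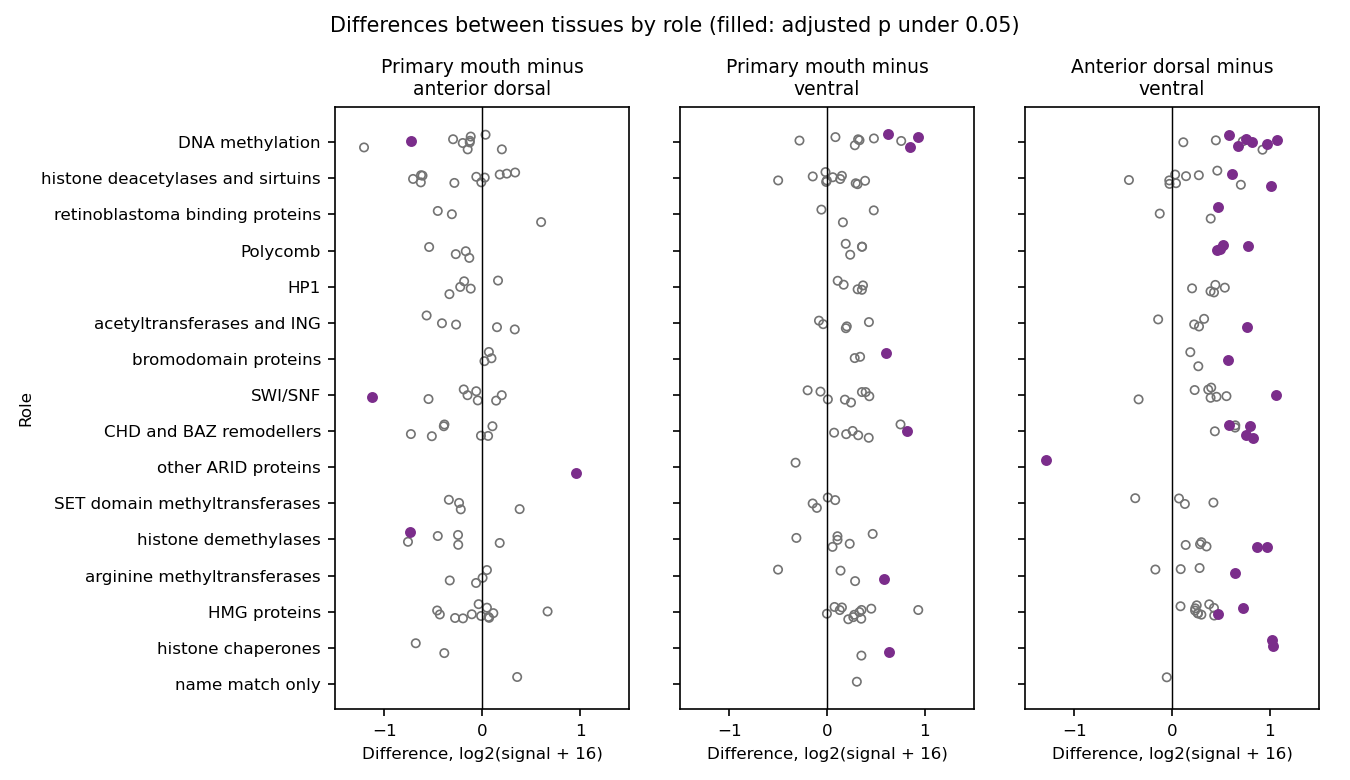
Differences between tissues for each tested chromatin regulator probe set, on the log2(signal + 16) scale (horizontal axis), grouped by role (vertical axis). Filled points passed the limma threshold: 4 in the left panel, 7 in the middle and 28 in the right, and in the right panel arid3a.S is the only filled point below 0. In the right panel the direction of hdac2.S was fixed by the filter.

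Both dnmt1 copies and 1 of 3 uhrf1.S probe sets, for proteins that maintain DNA methylation, were lower in ventral tissue than in both other tissues. The maintenance methyltransferase gene dnmt1.S (gene ID 100036795) had signals, in array order, of 581, 612 and 466 for primary mouth, 657, 571 and 607 for anterior dorsal and 304, 308 and 236 for ventral tissue. All 3 ventral arrays lay below the 6 others, and primary mouth overlapped anterior dorsal tissue. The difference from ventral tissue was 1.08 ± 0.17 (adjusted p = 0.000492) for anterior dorsal and 0.93 ± 0.17 (adjusted p = 0.00261) for primary mouth. Its homeolog dnmt1.L read 267, 226 and 190.1 for primary mouth, 290.4, 226 and 232 for anterior dorsal and 152, 128 and 83.7 for ventral tissue, again with ventral tissue below the rest. The differences were 0.98 ± 0.21 (adjusted p = 0.00497) and 0.85 ± 0.21 (adjusted p = 0.0188). Between primary mouth and anterior dorsal tissue the 95% intervals of the difference were -0.51 to 0.22 for dnmt1.S and -0.59 to 0.34 for dnmt1.L.

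For uhrf1.S, whose product brings DNMT1 to newly replicated DNA, signals were 719, 683 and 725 for primary mouth, 852, 757 and 721 for anterior dorsal and 593, 408 and 385 for ventral tissue. Ventral tissue was lowest without overlap. The differences were 0.75 ± 0.18 (adjusted p = 0.00764) from anterior dorsal and 0.63 ± 0.18 (adjusted p = 0.0331) from primary mouth, and a second probe set gave 0.68 ± 0.17 (adjusted p = 0.0127) for anterior dorsal minus ventral. The third did not pass (0.72 ± 0.25, adjusted p = 0.0553). For primary mouth minus ventral neither passed, at 0.48 ± 0.17 (adjusted p = 0.0907) and 0.76 ± 0.25 (adjusted p = 0.0663). The NuRD subunit gene mbd3.S followed another order. Its brightest probe set read 554, 515 and 707 for primary mouth, 621, 749 and 818 for anterior dorsal and 475, 491 and 471 for ventral tissue, and the next 268, 176 and 292 for primary mouth, 381, 395 and 456 for anterior dorsal and 216, 217 and 245 for ventral tissue. On the second, anterior dorsal tissue was above all 6 other arrays, with differences of 0.82 ± 0.19 (adjusted p = 0.00716) from ventral tissue and, as primary mouth minus anterior dorsal, -0.73 ± 0.19 (adjusted p = 0.0304). On the first, only the difference between anterior dorsal and ventral tissue passed, 0.58 ± 0.17 (adjusted p = 0.023). The third probe set, at 0.93 ± 0.44 (adjusted p = 0.154) and -1.21 ± 0.44 (adjusted p = 0.114), did not pass. The methyl-CpG reader genes mbd1.L (0.45 ± 0.16, adjusted p = 0.0543) and mbd1.S (0.12 ± 0.17, adjusted p = 0.688) did not pass between anterior dorsal and ventral tissue. In all, 6 of 10 tested probe sets of this group were higher in anterior dorsal than in ventral tissue, where 10.5% of all tested probe sets were. In primary mouth 3 were higher than in ventral tissue, where 4.42% of all were. The 10 are not separate genes, as uhrf1.S and mbd3.S have 3 probe sets each.

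Several of these calls did not hold on leaving out each array in turn. The primary mouth call of dnmt1.L against ventral tissue was lost on leaving out primary mouth 1a (adjusted p = 0.0794) or ventral 3 (adjusted p = 0.0831) and that of uhrf1.S on leaving out any of anterior dorsal 2 and 3, primary mouth 1a, 2 and 3, ventral 2 and 3 (adjusted p from 0.0527 to 0.144). For mbd3.S the brightest probe set lost its call on leaving out any of anterior dorsal 2 and 3, ventral 1, 2 and 3 (adjusted p from 0.0542 to 0.108), and the second lost its primary mouth call on leaving out anterior dorsal 2 (adjusted p = 0.0881), anterior dorsal 3 (adjusted p = 0.138), primary mouth 2 (adjusted p = 0.0938) or ventral 2 (adjusted p = 0.0518). The second uhrf1.S probe set lost its call on leaving out ventral 2 (adjusted p = 0.0536). Within the high-ratio and low-ratio arrays primary mouth minus ventral was 0.23 and 0.85 for the brightest uhrf1.S probe set. It was 0.64 and 0.78 for dnmt1.L and 0.94 and 0.75 for dnmt1.S. Both dnmt1 copies, the brightest uhrf1.S and the second mbd3.S probe set kept the call between anterior dorsal and ventral tissue without each array in turn.

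Both genes for replication-linked histone chaperones were higher in anterior dorsal than in ventral tissue. The CAF-1 subunit gene chaf1a.L (gene ID 398222) read 229, 199 and 184 for primary mouth, 289.7, 245 and 279 for anterior dorsal and 127, 117 and 132 for ventral tissue. The 3 tissues did not overlap on this probe set. Its differences from ventral tissue were 1.02 ± 0.15 (adjusted p = 0.000378) and, for primary mouth, 0.64 ± 0.15 (adjusted p = 0.015). Primary mouth minus anterior dorsal was -0.39 ± 0.15 (adjusted p = 0.153), with a 95% interval of -0.72 to -0.05. Signals of asf1b.L, a carrier of histones H3 and H4, were 296, 242 and 527 for primary mouth, 471, 610.1 and 571 for anterior dorsal and 235, 283 and 264 for ventral tissue. Primary mouth 3 lay within the anterior dorsal values, while primary mouth 2 lay within the ventral ones. The difference between anterior dorsal and ventral tissue was 1.03 ± 0.24 (adjusted p = 0.00767), and the other contrasts did not pass (adjusted p = 0.11 and 0.375). Between anterior dorsal and ventral tissue both calls held without each array in turn, while that of chaf1a.L in primary mouth was lost on leaving out primary mouth 1a (adjusted p = 0.061) or ventral 2 (adjusted p = 0.0681).

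**Figure D4:**
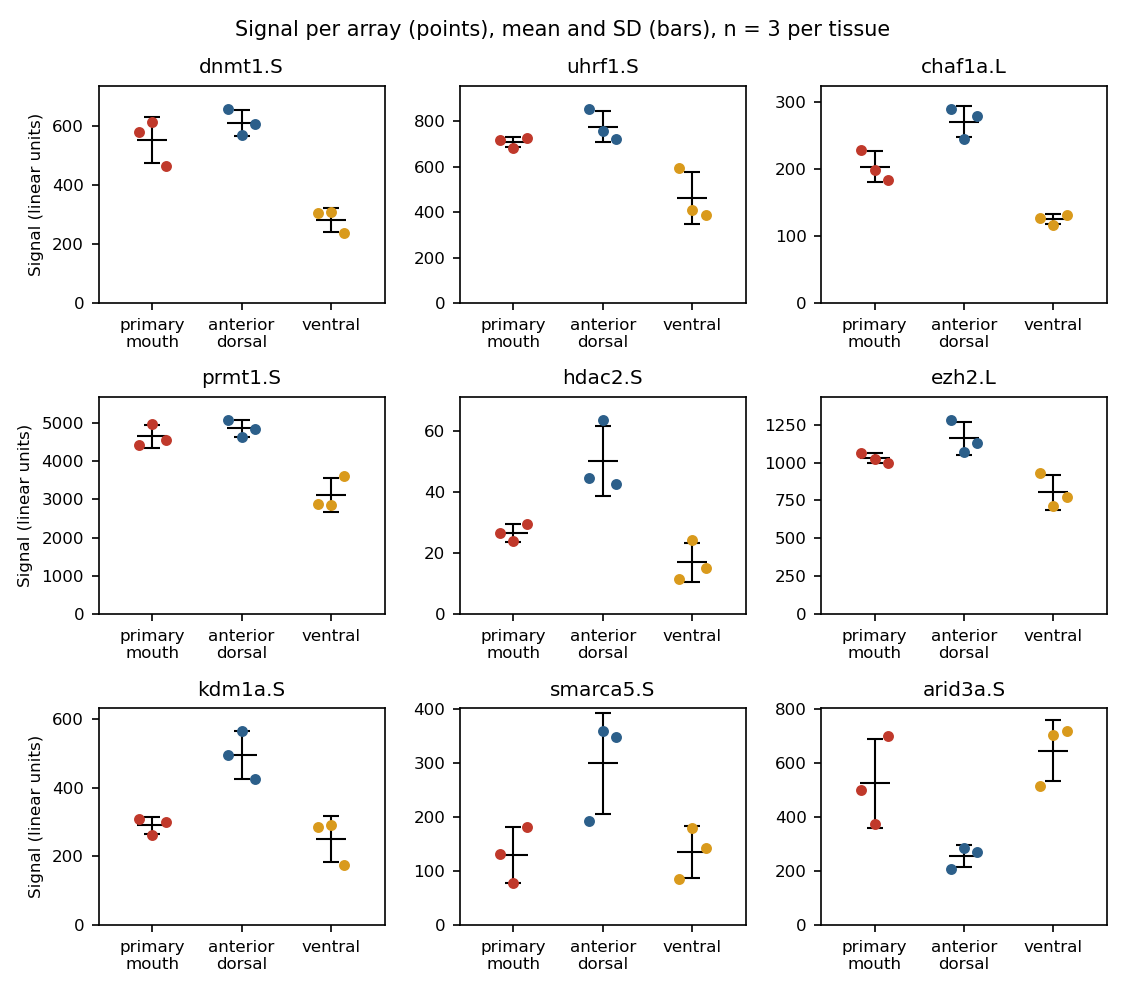
Signal (vertical axis, linear units, from 0) of 9 chromatin regulator genes in each of the 9 arrays by tissue (horizontal axis). Points are single arrays, and bars give the mean and SD of 3 arrays. The probe set of hdac2.S passed the filter through the anterior dorsal arrays alone. In dnmt1.S, uhrf1.S, chaf1a.L and prmt1.S the ventral arrays lie below the 6 others, in kdm1a.S and smarca5.S the anterior dorsal arrays lie above the 6 others, and in arid3a.S they lie below them.

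All 4 tested Polycomb members, for suz12, ezh2.L, eed.L and eed.S, were higher in anterior dorsal than in ventral tissue, by 0.46 to 0.78, where 10.5% of all were. In either primary mouth contrast 0 of 4 passed by limma. At an unadjusted p under 0.05, 1 of them was lower in primary mouth than anterior dorsal tissue and 2 were higher than in ventral tissue. Of all probe sets 22.7% and 27.8% differed in these contrasts in either direction. Polycomb genes were not called throughout. Of 16 tested probe sets of Polycomb partner genes, which are not members, 3 were higher in anterior dorsal than in ventral tissue and 13 did not pass. The scaffold subunit gene suz12 read 491, 269.9 and 459 for primary mouth, 558, 651 and 539.8 for anterior dorsal and 309.8, 381 and 309.7 for ventral tissue, with anterior dorsal tissue above the rest and primary mouth overlapping ventral tissue (0.78 ± 0.21, adjusted p = 0.0185 for anterior dorsal minus ventral). For the methyltransferase gene ezh2.L signals were 1065, 1023 and 998 for primary mouth, 1280.1, 1071 and 1130.2 for anterior dorsal and 933, 711 and 770.2 for ventral tissue. Here the 3 tissues stood in order without overlap, though anterior dorsal and primary mouth nearly touched, and the difference was 0.52 ± 0.15 (adjusted p = 0.0252). The copies of eed, whose product binds the mark that EZH2 writes, differed by 0.49 ± 0.14 (adjusted p = 0.0243) for eed.L and 0.46 ± 0.15 (adjusted p = 0.0403) for eed.S. None of these 4 calls held on leaving out each array in turn. That of suz12 was lost without anterior dorsal 2 (adjusted p = 0.0772), ventral 1 (adjusted p = 0.0564) or ventral 3 (adjusted p = 0.0653). That of ezh2.L was lost without anterior dorsal 1 (adjusted p = 0.0948) or 3 (adjusted p = 0.0711). It was also lost without ventral 2 (adjusted p = 0.103) or 3 (adjusted p = 0.0827). The eed.L call was lost without any 1 of anterior dorsal 1, 2 and 3 and ventral 2 and 3 (adjusted p from 0.0573 to 0.0909). The eed.S call was lost without primary mouth 1a or any anterior dorsal or ventral array (adjusted p from 0.0518 to 0.155). Within the high-ratio and low-ratio arrays anterior dorsal minus ventral was 0.82 and 0.76 for suz12 and 0.45 and 0.56 for ezh2.L. It was 0.58 and 0.45 for eed.L and 0.51 and 0.44 for eed.S.

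The HP1 genes, which encode readers of methylated H3 in heterochromatin, passed in no contrast by limma (0 of 5 probe sets). At an unadjusted p under 0.05, 1 was higher in anterior dorsal than in ventral tissue, where 35% of all probe sets differed in either direction. In primary mouth 1 was higher than in ventral tissue, where 27.8% of all differed. The HP1 differences between anterior dorsal and ventral tissue were 0.21 to 0.54, all above 0, as were 88.4% of members and 54.3% of all probe sets. That of cbx1.S was 0.54 ± 0.22 (adjusted p = 0.0934) and that of cbx5.S 0.43 ± 0.21 (adjusted p = 0.175).

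Among histone deacetylases and sirtuins, 2 of 11 tested probe sets passed, both higher in anterior dorsal than in ventral tissue, or 18.2% where 10.5% of all were. The direction of 1 of these 2, hdac2.S, was fixed by the filter, as given below. The 18.2% therefore overstates the group and cannot be read against the 10.5%. Signals of hdac2.S were low, 26.6, 23.9 and 29.6 for primary mouth, 44.6, 63.7 and 42.8 for anterior dorsal and 11.6, 24.2 and 15.1 for ventral tissue. Anterior dorsal tissue lay above all 6 others, and primary mouth overlapped ventral tissue. This probe set passed the filter through the 3 anterior dorsal arrays alone. The other 6 lay below the 40th percentile of their arrays, so anterior dorsal tissue had to be higher, and no difference is given. It is counted among the 27, and no other tested member passed the filter through 1 tissue. For hdac1.L signals were 144, 100.1 and 168 for primary mouth, 186, 232 and 235 for anterior dorsal and 121, 157 and 133 for ventral tissue, with the same order and a difference of 0.61 ± 0.20 (adjusted p = 0.0404), a call lost on leaving out any of anterior dorsal 2 and 3, primary mouth 1a, ventral 1, 2 and 3 (adjusted p from 0.0512 to 0.134). Its homeolog hdac1.S, at 485, 412 and 1013 for primary mouth, 636, 1133 and 1263 for anterior dorsal and 367, 759.7 and 729 for ventral tissue, did not pass (0.70 ± 0.37, adjusted p = 0.2) and differed by array set: the 4 high-ratio arrays were the lowest of their tissues. Beyond hdac1 and hdac2, the differences of hdac6.L, a mainly cytoplasmic deacetylase, and of hdac8.L, hdac10.L and the sirtuin genes sirt3.2.L, sirt4.L, sirt5.L and sirt7.L ran from -0.44 to 0.27 between these tissues, and none passed.

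The demethylase gene kdm1a.S (gene ID 100127344), whose product removes methyl groups from H3 in the CoREST complex, was higher in anterior dorsal tissue than in both others. It read 309, 262 and 299 for primary mouth, 496, 564 and 426 for anterior dorsal and 285, 291 and 174 for ventral tissue, so anterior dorsal tissue lay above the 6 other arrays. The difference from ventral tissue was 0.97 ± 0.20 (adjusted p = 0.00392), and primary mouth minus anterior dorsal was -0.74 ± 0.20 (adjusted p = 0.0407). A second probe set gave 0.87 ± 0.22 (adjusted p = 0.0128) and -0.76 ± 0.22 (adjusted p = 0.0531). The first of these calls held without each array, the primary mouth call was lost on leaving out any of anterior dorsal 1, 2 and 3, primary mouth 1a, 2 and 3, ventral 2 (adjusted p from 0.052 to 0.179), and the second probe set lost its call on leaving out anterior dorsal 2 (adjusted p = 0.0535) or anterior dorsal 3 (adjusted p = 0.0631). No other demethylase passed: kdm2b.L gave 0.47 ± 0.23 (adjusted p = 0.216) for primary mouth minus ventral, and kdm3a.S -0.45 ± 0.17 (adjusted p = 0.14) for primary mouth minus anterior dorsal.

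Of the proteins named for binding retinoblastoma protein, rbbp5.S, a subunit of H3 lysine methyltransferase complexes, was higher in anterior dorsal than in ventral tissue by 0.47 ± 0.15 (adjusted p = 0.0428), a call lost on leaving out any of anterior dorsal 1, 2 and 3, ventral 1, 2 and 3 (adjusted p from 0.0811 to 0.134). The histone-binding subunit gene rbbp4.L, shared by NuRD, CAF-1 and Polycomb complexes, read 63.7, 57.9 and 109.9 for primary mouth, 59.05, 129 and 159 for anterior dorsal and 69.7, 73.8 and 92.7 for ventral tissue and did not pass (0.40 ± 0.30, adjusted p = 0.387, 95% interval -0.26 to 1.05). The DNA end resection gene rbbp8.L was highest in primary mouth, at 331 ± 42.2 for primary mouth, 216 ± 60.3 for anterior dorsal and 239 ± 76.8 for ventral tissue (SD, n = 3), and did not pass against anterior dorsal (adjusted p = 0.144) or ventral tissue (adjusted p = 0.209).

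The ISWI motor gene smarca5.S and its partner genes baz1a.S and baz1b.S were higher in anterior dorsal than in ventral tissue. Signals of smarca5.S were 131, 77.3 and 182 for primary mouth, 192, 359 and 349 for anterior dorsal and 84.6, 180.4 and 142 for ventral tissue. Anterior dorsal 1, in the high-ratio set, lay little above primary mouth 3, and the other anterior dorsal arrays lay well above the rest. The differences were 1.06 ± 0.33 (adjusted p = 0.0318) from ventral tissue and -1.13 ± 0.33 (adjusted p = 0.0492) for primary mouth minus anterior dorsal. The latter was smaller within the array sets, at -0.83 in the high-ratio and -0.90 in the low-ratio arrays. For baz1a.S signals were 65.2, 45.5 and 86.02 for primary mouth, 83.1, 89.4 and 126 for anterior dorsal and 34.4, 57.7 and 54.7 for ventral tissue, and for baz1b.S 51.2, 66.2 and 69.00 for primary mouth, 79.2, 138 and 130.1 for anterior dorsal and 34.6, 79.1 and 68.1 for ventral tissue. Both gave anterior dorsal values above all ventral ones, for baz1b.S by less than 1 unit, with differences of 0.83 ± 0.23 (adjusted p = 0.0196) and 0.80 ± 0.26 (adjusted p = 0.0397). The nucleolar partner baz2a.L did not pass (0.44 ± 0.25, adjusted p = 0.242). The smarca5.S calls were lost on leaving out anterior dorsal 2 (adjusted p = 0.121), anterior dorsal 3 (adjusted p = 0.112), ventral 1 (adjusted p = 0.12) or ventral 3 (adjusted p = 0.0626) for ventral tissue and on leaving out any of anterior dorsal 2 and 3, primary mouth 1a and 2, ventral 2 and 3 (adjusted p from 0.0564 to 0.197) for primary mouth. Those of baz1a.S and baz1b.S were lost on leaving out anterior dorsal 3 (adjusted p = 0.0921) or ventral 1 (adjusted p = 0.0784) and on leaving out anterior dorsal 2 (adjusted p = 0.147), anterior dorsal 3 (adjusted p = 0.132), ventral 1 (adjusted p = 0.143) or ventral 3 (adjusted p = 0.0569).

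The gene chd7.L, a remodeller active in neural crest and inner ear development, was lower in ventral tissue than in both others on 1 of 3 probe sets. That one, the brightest, read 363, 353 and 512 for primary mouth, 403, 351 and 408 for anterior dorsal and 176, 279.6 and 219 for ventral tissue, and the ventral arrays lay below the 6 others. The differences were 0.76 ± 0.20 (adjusted p = 0.0142) for anterior dorsal and 0.82 ± 0.20 (adjusted p = 0.0154) for primary mouth, lost on leaving out anterior dorsal 3 (adjusted p = 0.056) or ventral 1 (adjusted p = 0.0571) and on leaving out ventral 1 (adjusted p = 0.0536) or ventral 3 (adjusted p = 0.0524) respectively. Its other probe sets gave 0.65 ± 0.25 (adjusted p = 0.0784) and 0.65 ± 0.27 (adjusted p = 0.111) for anterior dorsal minus ventral, and 0.75 ± 0.25 (adjusted p = 0.0631) and 0.26 ± 0.27 (adjusted p = 0.574) for primary mouth minus ventral, and passed in neither. The NuRD motor gene chd4.L read 218, 246 and 250.1 for primary mouth, 294, 351 and 307 for anterior dorsal and 186, 261 and 178 for ventral tissue, with anterior dorsal tissue highest and a difference from ventral tissue of 0.59 ± 0.17 (adjusted p = 0.0269), lost on leaving out anterior dorsal 2 (adjusted p = 0.109), anterior dorsal 3 (adjusted p = 0.0683), ventral 1 (adjusted p = 0.0846) or ventral 3 (adjusted p = 0.11). The remaining genes grouped by name as SWI/SNF did not pass between anterior dorsal and ventral tissue. Among them were the core subunit genes smarcb1.S (0.40 ± 0.18, adjusted p = 0.127) and smarcc1.L (0.23 ± 0.29, adjusted p = 0.621) and the DNA annealing helicase gene smarcal1.L (0.46 ± 0.21, adjusted p = 0.147). At an unadjusted p under 0.05 by limma, 5 of the 8 tested probe sets of this group, smarca5.S included, were higher in anterior dorsal tissue and 0 lower. Of all probe sets 35% differed in either direction.

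The gene arid3a.S (gene ID 443893) was the 1 member called lower in anterior dorsal than in ventral tissue. This transcription factor gene read 499, 374 and 701 for primary mouth, 209, 287 and 269 for anterior dorsal and 516, 705 and 718 for ventral tissue. Anterior dorsal tissue lay below all 6 other arrays, and primary mouth overlapped ventral tissue. The difference was -1.29 ± 0.23 (adjusted p = 0.00131) for anterior dorsal minus ventral and 0.96 ± 0.23 (adjusted p = 0.0187) for primary mouth minus anterior dorsal. The first call held without each array, and the second was lost on leaving out anterior dorsal 1 (adjusted p = 0.0601), anterior dorsal 3 (adjusted p = 0.053) or primary mouth 1a (adjusted p = 0.0559).

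Of the acetyltransferase and acetyl-reader genes, kat7.L and brd7.L passed. The brightest kat7.L probe set, for an enzyme that acetylates H3 and H4, read 1212, 848 and 898 for primary mouth, 1386, 1571 and 1404 for anterior dorsal and 819, 906 and 812 for ventral tissue. Anterior dorsal tissue lay above the 6 others, with a difference of 0.77 ± 0.16 (adjusted p = 0.00441) from ventral tissue. Primary mouth minus anterior dorsal was -0.57 ± 0.16 (adjusted p = 0.0509), and its second probe set did not pass (0.33 ± 0.26, adjusted p = 0.414 against ventral tissue). For brd7.L, a bromodomain subunit of the PBAF remodeller, signals were 669, 935 and 792 for primary mouth, 873, 722 and 749 for anterior dorsal and 587, 517 and 454 for ventral tissue. Ventral tissue was lowest without overlap, by 0.58 ± 0.17 (adjusted p = 0.0271) against anterior dorsal and 0.60 ± 0.17 (adjusted p = 0.0349) against primary mouth. These 2 calls were lost on leaving out any of anterior dorsal 1, 2 and 3, ventral 2 and 3 (adjusted p from 0.0519 to 0.11) and on leaving out any of anterior dorsal 2 and 3, primary mouth 2 and 3, ventral 2 and 3 (adjusted p from 0.0514 to 0.144) respectively. The acetyl-histone readers brd2.S (0.28 ± 0.17, adjusted p = 0.314) and brd3.S (0.34 ± 0.24, adjusted p = 0.385) and the Sin3 subunit gene ing2.L (0.43 ± 0.16, adjusted p = 0.101) did not pass between primary mouth and ventral tissue.

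The main arginine methyltransferase gene, prmt1.S, was lower in ventral tissue than in both others, and its homeolog did not pass. Signals of prmt1.S were 4415, 4982 and 4556 for primary mouth, 5069, 4644 and 4850.2 for anterior dorsal and 2865, 2854 and 3614 for ventral tissue. The ventral arrays lay below the 6 others, by 0.65 ± 0.15 (adjusted p = 0.00706) against anterior dorsal and 0.58 ± 0.15 (adjusted p = 0.0208) against primary mouth. The second of these calls was lost on leaving out primary mouth 2 (adjusted p = 0.0538), ventral 1 (adjusted p = 0.0564) or ventral 2 (adjusted p = 0.0764). For anterior dorsal minus ventral the brightest prmt1.L probe set gave 0.28 ± 0.20 (adjusted p = 0.34), and prmt5.L gave 0.09 ± 0.16 (adjusted p = 0.755). The other prmt1.L probe set went the opposite way, at -0.17, and at -0.50 for primary mouth minus ventral, and passed in neither. None of the 4 tested probe sets of genes named setd or setdb passed in any contrast by limma. Other SET domain genes, such as ezh2.L, are described elsewhere and are not among these 4. At an unadjusted p under 0.05, 0 were higher or lower in anterior dorsal than in ventral tissue, where 35% of all probe sets differed. The H3 methyltransferase gene setdb1.L read 111 ± 10.9 for primary mouth, 134 ± 18.4 for anterior dorsal and 124 ± 38.2 for ventral tissue (SD, n = 3), and setd4.L 45.5 ± 19.5 for primary mouth, 29.99 ± 9.26 for anterior dorsal and 43.3 ± 9.52 for ventral tissue.

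HMG genes, for proteins that bend DNA or loosen nucleosomes, had 12 tested probe sets. Of these 2 passed, both higher in anterior dorsal than in ventral tissue, or 16.7% where 10.5% of all were. The second hmgb2.L probe set read 181, 152 and 223 for primary mouth, 202, 305 and 277 for anterior dorsal and 148, 166 and 136 for ventral tissue, a difference of 0.73 ± 0.19 (adjusted p = 0.0153), lost on leaving out anterior dorsal 2 (adjusted p = 0.0749), anterior dorsal 3 (adjusted p = 0.0636) or ventral 3 (adjusted p = 0.0596). The brightest hmgb2.L probe set gave 0.43 ± 0.16 (adjusted p = 0.0746). Of 5 tested hmgb2 probe sets, those of hmgb2.S included, 1 passed and 4 did not, with differences of 0.24 to 0.73. The hmgb3.L probe set, whose suffix _x_at marks probes that may bind other transcripts, differed by 0.47 ± 0.16 (adjusted p = 0.045), lost on leaving out any of anterior dorsal 1, 2 and 3, primary mouth 1a, ventral 1, 2 and 3 (adjusted p from 0.0609 to 0.14), and hmgb3.S gave 0.27 ± 0.21 (adjusted p = 0.396) and did not pass. The architectural gene hmga2.L read 447, 673 and 253 for primary mouth, 452, 198 and 197 for anterior dorsal and 285, 194 and 178 for ventral tissue. Its high values were those of the high-ratio arrays in each tissue, and it passed in no contrast (primary mouth minus ventral 0.93 ± 0.36 (adjusted p = 0.114), 95% interval 0.14 to 1.72).

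**Figure D5:**
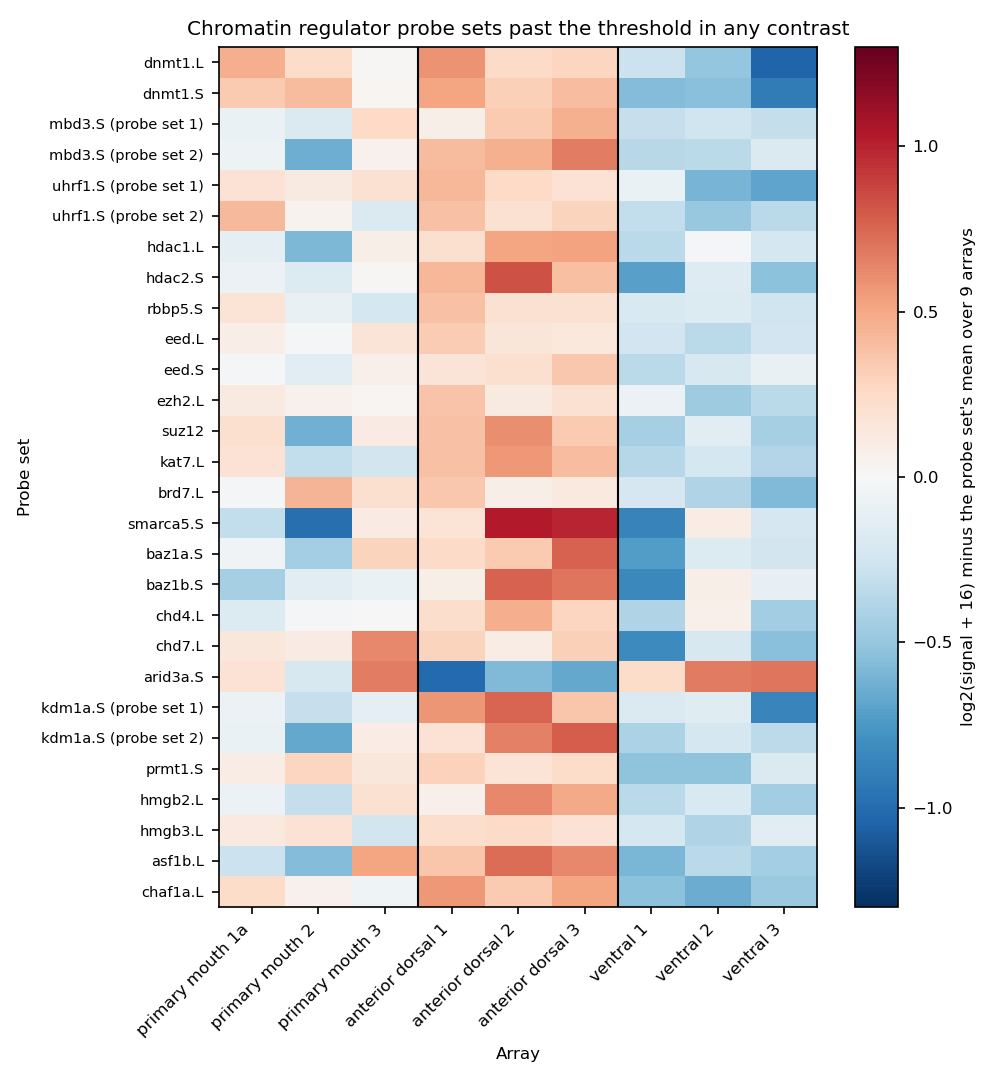
The 28 chromatin regulator probe sets that passed in any contrast (vertical axis; probe sets of 1 gene are numbered by mean signal) in each of the 9 arrays (horizontal axis). Colour gives log2(signal + 16) minus the mean of the probe set over 9 arrays, red above and blue below. All but arid3a.S are higher on average in anterior dorsal than in ventral tissue, a direction that the filter fixed for hdac2.S.

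Members also differed between the array sets. With tissue in the model, 18 of 86 members were lower in the high-ratio arrays (13.5% of all tested probe sets) and 11 were higher (12.1% of all). Among the lower were hdac1.S, by -1.01 ± 0.11 (adjusted p = 8.28e-05), the third mbd3.S probe set, by -1.04 ± 0.21 (adjusted p = 0.00346), the second cbx1.S probe set, by -1.09 ± 0.13 (adjusted p = 0.000146), and smarca5.S, by -0.80 ± 0.15 (adjusted p = 0.00199). Among the higher were hmga2.L, by 0.93 ± 0.14 (adjusted p = 0.000809), and hmgn2.S, by 0.72 ± 0.13 (adjusted p = 0.00194). Of the probe sets called between tissues, smarca5.S, arid3a.S, by -0.50 ± 0.12 (adjusted p = 0.00813), baz1b.S, by -0.56 ± 0.14 (adjusted p = 0.0127), asf1b.L, by -0.49 ± 0.14 (adjusted p = 0.021), and baz1a.S, by -0.45 ± 0.14 (adjusted p = 0.0334), were lower in the high-ratio arrays, and dnmt1.L, by 0.38 ± 0.13 (adjusted p = 0.0469), was higher.

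Probe sets of the same gene and its homeolog mostly had 1 sign between anterior dorsal and ventral tissue. Of 18 gene names with several tested probe sets, 17, all but prmt1, had differences of 1 sign between anterior dorsal and ventral tissue. The number was 12 between primary mouth and ventral tissue and 10 between primary mouth and anterior dorsal tissue. In these contrasts 88.4%, 80.2% and 32.6% of all members were above 0, so the counts do not measure agreement within a name apart from the general shift. No name had probe sets called in opposite directions, but in 8, 3 and 2 names only part of the probe sets passed. The probes may detect both homeologs, so a difference between copies, as in hdac1 or prmt1, is uncertain.

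Other chromatin genes, from a list of 154 names that are not members, were measured on the same arrays. Many belong to the same kinds of family, among them Polycomb partners, remodellers, lysine methyltransferases and histone chaperones. The array held 84 of these names with 1 symbol, and 120 probe sets were tested. Between anterior dorsal and ventral tissue 26 were higher and 3 lower, or 21.7% and 2.5%, where 10.5% and 14.1% of all probe sets were, with a median of 0.36. Between primary mouth and ventral tissue 6 were higher and 0 lower by limma (median 0.25). These 5% lie near the 4.42% of all that were higher. Between primary mouth and anterior dorsal tissue 3 were higher and 1 lower (median -0.13), or 2.5% and 0.833%, below the 4.68% and 4.87% of all. The gene rcor2.L, a CoREST corepressor that holds KDM1A, read 496 ± 88.7, 841 ± 49.7 and 347 ± 79.8 (SD, n = 3) in the order primary mouth, anterior dorsal and ventral. It was higher in anterior dorsal than in ventral tissue by 1.26 ± 0.20 (adjusted p = 0.00049), and primary mouth minus anterior dorsal was -0.76 ± 0.20 (adjusted p = 0.0302). Also higher in anterior dorsal than in ventral tissue were the cohesin gene stag1.S (1.03 ± 0.23, adjusted p = 0.00564), a probe set of the histone chaperone gene nasp.L (1.01 ± 0.21, adjusted p = 0.00435) and the H3 lysine methyltransferase gene suv39h1.L (0.94 ± 0.17, adjusted p = 0.00143). In primary mouth, a nasp.S probe set that may bind other transcripts (0.80 ± 0.16, adjusted p = 0.00422), the condensin gene ncapg.L (0.67 ± 0.15, adjusted p = 0.00982), the histone chaperone gene anp32b.L (0.62 ± 0.17, adjusted p = 0.0292) and suv39h1.L (0.59 ± 0.17, adjusted p = 0.0344) were among the 6 that were higher than in ventral tissue. All 3 probe sets lower in anterior dorsal tissue than in both others belonged to prdm1.S, a zinc finger repressor. Its brightest probe set read 193 ± 83.8 for primary mouth, 24.8 ± 11.8 for anterior dorsal and 159.7 ± 58.5 for ventral tissue, a difference of -2.09 ± 0.34 (adjusted p = 0.000652) for anterior dorsal minus ventral. The anterior dorsal mean lay below the 40th percentiles of those arrays (31.4 to 33.1), so the size of this difference is uncertain.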

How the data were processed

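The deposited intensities are MAS5 values, per the submitters' processing notes, with 1 linear signal for every probe set of the 9 arrays. The program's version and settings are not stated in the sources at hand. Trimmed means, leaving off 2% of probe sets at each end, were 150.02 to 150.025, and no further scaling was applied. Signals were not filtered on detection calls. Gene names are those of the platform annotation. After removal of 120 control probe sets and addition of 16, log2 values of every array entered a single limma 3.58.1 fit (R 4.3.3) with tissue as the factor, eBayes with a trend, 6 residual degrees of freedom and two-sided tests. The steps were tested on simulated data. The number of arrays limits the precision.

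The chromatin members, roles and lists were chosen with earlier results of these data known. Genes named were, per contrast and direction, up to 10 called members with the largest change, up to 2 more per role, and dnmt1, uhrf1, ezh2, suz12, eed, hdac1, hdac2, rbbp4, smarca5, kdm1a, hmga2, hmgb3, chaf1a and asf1b whatever their values (dnmt3a, rbbp7, smarca4 and kdm6b were also on this list and had no member probe set). Up to 4 further chromatin genes were named per contrast and direction. Others were named after their values were seen, to show a range, an array effect or an untested gene. For a symbol with several probe sets the brightest was described first. Alternatives changed the added constant, filter, normalization, trend, array set term, replicate block and arrays included.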

Additional observations from a re-analysis of the deposited data

How the results depend on the processing

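Counts of called members moved with the processing, as did the share of all probe sets called, given in brackets, while no named call changed direction. With 64 added in place of 16 the count of members lower in primary mouth than anterior dorsal was 5 (5.1%), and of those higher in anterior dorsal than in both 5 (4.25%). With no filter, primary mouth was higher than anterior dorsal tissue in 2 (3.07%) and lower in 1 (3.5%), and anterior dorsal exceeded both in 1 (2.87%). With the array set as a term 11 (8.11%) were lower in primary mouth than in anterior dorsal, 15 (8.76%) higher than in ventral tissue, 44 (17.7%) higher and 2 (19.1%) lower in anterior dorsal than in ventral tissue, 11 (6.25%) higher in anterior dorsal than in both and 13 (5.47%) lower in ventral tissue than in both. Within the high-ratio arrays, with 1 residual degree of freedom, these were 0 (2.79%) lower in primary mouth than in anterior dorsal, 3 (2.31%) higher than in ventral tissue, 4 (4.46%) higher in anterior dorsal than in ventral tissue, 0 (2.2%) higher in anterior dorsal than in both and 2 (0.999%) lower in ventral tissue than in both. Within the low-ratio arrays primary mouth exceeded anterior dorsal tissue in 2 (3.61%) and both tissues in 1 (0.979%). With the replicate block 2 (8.08%) were higher and 10 (8.44%) lower in primary mouth than in anterior dorsal, and 13 (9.27%) higher and 1 (14.2%) lower than in ventral tissue. With it 37 (15.7%) were higher and 2 (17.6%) lower in anterior dorsal than in ventral tissue. Also, 9 (6.24%) were higher in anterior dorsal than in both and 1 (10.8%) higher in ventral tissue than in both. The labels give same-numbered samples only a number in common, and whether they were paired was not tested. The correlations of their deviations ran from -0.23 to 0.68. Over all pairs from different tissues these ran from 0.07 to 0.68 within an array set and from -0.68 to -0.11 across the sets.

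Leaving out each array in turn gave 0 to 1 (2.82% to 5.64% of all) higher and 0 to 6 (3.26% to 5.61%) lower in primary mouth than in anterior dorsal. Against ventral tissue it gave 3 to 9 (2.37% to 6.7%) higher and 0 to 1 (7.17% to 10.5%) lower in primary mouth, and 12 to 29 (7.43% to 12%) higher in anterior dorsal. It gave 0 to 5 (2.77% to 4.11%) higher and 0 to 1 (1.75% to 3.36%) lower in anterior dorsal than in both, and 3 to 6 (1.33% to 3.09%) lower in ventral tissue than in both. Of 34 named calls, 33 held with 1 added, 34 with 64, 27 with no filter, 32 with quantile normalization, 34 with the array set or the replicate block as a term, 33 without the trend, 8 within the high-ratio and 29 within the low-ratio arrays. Of the 32 tested at the 60th percentile 31 held.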

Other observations

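The annotation gives several symbols, at least 1 of them from a chromatin family, to 5 probe sets, which belonged to no comparison above. Of these, 2 are for hmgn3, which encodes a nucleosome-binding HMG protein. Their signals in primary mouth, anterior dorsal and ventral tissue were 2846 ± 415, 3209.8 ± 259 and 2554 ± 153 (SD, n = 3) for 1 probe set and 2985 ± 334, 3372 ± 101 and 2614 ± 68.1 for the other. Anterior dorsal minus ventral was 0.33 and 0.37 on the log2 scale, with limma adjusted p of 0.154 and 0.0829. None of the 5 passed in any contrast by limma, the others being joint probe sets of ing5, of cbx3 and of hmgn1.S with tmem126a.L.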
